A study of Mus musculus and Homo sapiens with 34 samples.

Results

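CT26 is an established mouse colorectal carcinoma cell line. The libraries described here are all 12 of its spheroid libraries, chosen by their label, out of 34 libraries of mouse and human colorectal carcinoma lines in the study. CT26 cells were grown as spheroids in ultra-low attachment U-bottom plates, either as cells alone (6 libraries) or with decellularised SIS ECM (6 libraries), and were collected at day 7. SIS ECM is extracellular matrix prepared from small intestinal submucosa, and the SIS ECM spheroids are the ones the study calls MatriSpheres. Both cultures used the same serum-containing RPMI medium, carried no genetic change or drug that the labels name, and were pooled as 10 spheroids per tube. The comparison asks how the transcriptome of the cancer cells differed when this matrix was present. Nothing in the labels says that the 6 libraries of a culture were seeded separately. P-values below therefore measure how these libraries spread, and that spread may be technical.

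A spheroid is a ball of cells that makes its own matrix, has fewer dividing cells and less oxygen towards its centre, and lacks the blood vessels, fibroblasts and immune cells of a tumour. Added matrix can be bound through integrins and cut by secreted metalloproteinases, which are made as inactive precursors and held back by the TIMP inhibitors. Interferon signalling starts with a ligand at the cell surface, runs through the kinases Jak1 and Tyk2 to factors such as Stat2 and Irf9, and ends in a large group of antiviral effectors, guanylate-binding GTPases and antigen presentation genes. Cytosolic sensors of foreign or misplaced nucleic acid, such as Ifih1 and Ddx58 for RNA and Cgas for DNA, can start the same cascade within the cell.

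To show what the regulatory DNA of the genes in the foreground looks like, the 200 bases before the start site of 6 genes are given 5′ to 3′ on the gene's strand, from RefSeq promoters on build GRCm38.p6. Capitals mark, in the first 3, every match to the core of the interferon-stimulated response element (GAAA, any 2 bases, then GAAA again, searched on both strands, where overlapping matches run together) and, in the last 3, every match to the AP-1 site (TGANTCA, which reads the same on both strands). Isg15, a ubiquitin-like antiviral protein, lies at chr4:156200819-156201018 on the minus strand. Ifit3, an antiviral RNA-binding family member, is at chr19:34583329-34583528 on the plus strand, and Tgtp2, an interferon-inducible GTPase, is at chr11:49064213-49064412 on the minus strand. The collagenase Mmp13 is at chr9:7272314-7272513, and the stromelysins Mmp3 and Mmp10 are at chr9:7445622-7445821 and chr9:7502142-7502341, all on the plus strand.
Isg15: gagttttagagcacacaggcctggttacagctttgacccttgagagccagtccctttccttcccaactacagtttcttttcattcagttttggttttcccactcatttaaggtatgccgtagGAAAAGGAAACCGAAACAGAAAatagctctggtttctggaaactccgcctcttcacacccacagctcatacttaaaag
Ifit3: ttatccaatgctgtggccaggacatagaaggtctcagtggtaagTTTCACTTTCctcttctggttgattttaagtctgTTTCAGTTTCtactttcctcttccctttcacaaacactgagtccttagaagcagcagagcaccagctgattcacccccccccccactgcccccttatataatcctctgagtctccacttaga
Tgtp2: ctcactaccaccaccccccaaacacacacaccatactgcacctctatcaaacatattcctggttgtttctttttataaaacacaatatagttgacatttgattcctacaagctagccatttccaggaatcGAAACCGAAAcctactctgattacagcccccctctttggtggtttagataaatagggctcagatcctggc
Mmp13: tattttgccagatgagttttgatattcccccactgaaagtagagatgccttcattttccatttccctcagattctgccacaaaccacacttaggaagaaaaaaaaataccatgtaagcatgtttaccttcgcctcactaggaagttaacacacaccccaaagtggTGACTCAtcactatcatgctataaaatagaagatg
Mmp3: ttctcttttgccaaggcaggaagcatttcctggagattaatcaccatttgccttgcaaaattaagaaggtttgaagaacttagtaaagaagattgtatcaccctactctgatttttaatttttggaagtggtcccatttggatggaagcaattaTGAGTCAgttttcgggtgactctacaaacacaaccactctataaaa
Mmp10: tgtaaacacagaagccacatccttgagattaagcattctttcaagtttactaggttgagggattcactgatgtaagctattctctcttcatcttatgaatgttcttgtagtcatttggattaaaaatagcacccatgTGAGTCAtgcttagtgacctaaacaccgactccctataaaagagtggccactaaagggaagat
Isg15 held 3 matches to the interferon element that overlap one another, Ifit3 held 2 on the opposite strand and Tgtp2 held 1, and each metalloproteinase promoter held 1 AP-1 match within 70 bases of the start. Only promoters with a match were printed, and Tgtp2 was taken as the GTPase with the largest rise among those with one. That these 6 hold a match was thus set by the choice. Over the 300-base windows of the RefSeq table (250 bases before to 50 after the start), the interferon element was found in 3.99% of all 27025 genes with a promoter. It was found in 3.89% of 8975 tested genes with one, in 18.2% of 154 genes that were at least 2-fold higher with SIS ECM and in 3.87% of 1317 genes that were lower. The AP-1 letters were found in 8.97% of all promoters, in 6.33% of those of tested genes, in 16.2% of those at least 2-fold higher and in 5.69% of those lower. They were in 3 of 6 risen metalloproteinases and TIMPs with a promoter, and in 11 of 34 risen interferon effectors. They were also in 3 of 10 risen interferon-inducible GTPases and in 0 of 11 risen MHC class I genes. A match is a description of these letters and not of a bound site.

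Sequencing depth ran from 15826190 to 21053793 expected counts per library. Libraries numbered 1 to 3 and 4 to 6 stood apart in both cultures, and the labels do not say what separates them. With a term for culture, 6443 of 12269 genes differed between the number ranges (52.5%), and transcripts of mitochondrial DNA made up 3.72 to 5.01% of counts in libraries 1 to 3 and 7.66 to 8.59% in libraries 4 to 6. Both ranges hold 3 libraries of each culture, so every comparison below was made with a term for range. SIS ECM library 3 also stood apart from SIS ECM libraries 1 and 2, at −22.2 on the second component after centring within ranges against 9.74 and 20.1. On that component cells-alone library 3 was at 8.65 against −9.42 and −6.94 for cells-alone libraries 1 and 2. SIS ECM library 4 was at −16.1 against −2.97 and −4.14 for SIS ECM libraries 5 and 6. Without SIS ECM library 4 the main test called 1860 genes higher and 2247 lower.

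**Figure D1:**
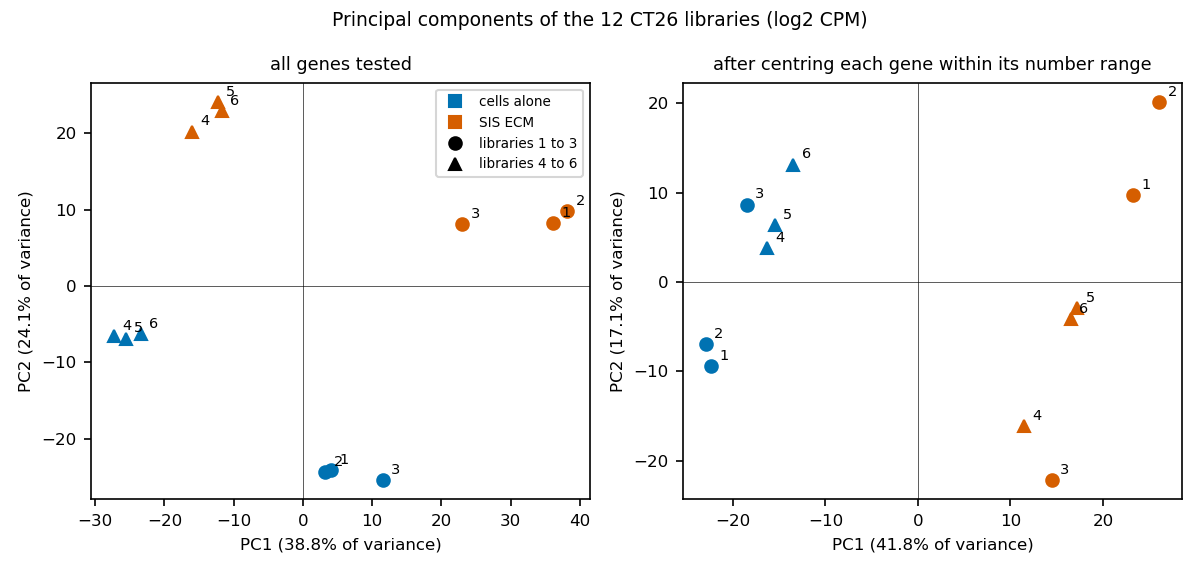
Principal components of the 12 CT26 libraries from log2 CPM of the genes tested, before (left) and after (right) each gene was centred within its number range; colours mark the culture, symbols the range and digits the library number. On the left the first component (38.8% of the variance) parts the ranges and the second (24.1%) the cultures, and on the right the first component (41.8%) parts the cultures with no overlap.

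The cells were checked against markers of the line's origin and of other cell types, counting a marker as detected at a mean of 1 CPM in either culture (CPM is a gene's count scaled to a common library size with TMM factors). Of 10 intestinal epithelial markers 3 were detected, namely Krt18, Krt20 and Lgals4, while the epithelial adhesion genes Cdh1, Cldn7 and Epcam were at 0 in all 12 libraries. CT26 thus lacked defining epithelial transcripts in both cultures. Of 9 fibroblast markers 5 were detected (Col1a1, Col1a2, Dcn, Pdgfra and Pdgfrb), and the fibroblast marker Thy1 was at 0 throughout. Their summed level was 496 to 743 CPM in cells alone and 426 to 650.5 CPM with SIS ECM. Col1a2 was most of that sum in each library, at 448 to 665 CPM in cells alone and 369 to 555 CPM with SIS ECM. No marker of 8 for endothelium or of 5 for adipocytes was detected, and 1 of 7 for smooth muscle was (Smtn). Of 11 leukocyte markers only the lysosomal glycoprotein Cd68 was detected, with Cd3e and Cd8a at 0 and Ptprc at no more than 0.287 CPM in any library. The summed leukocyte level was 1.23 to 3.05 CPM in cells alone and 2.04 to 10.4 CPM with SIS ECM. Cd68 was the largest part of that sum in each library, at 1.09 to 2.84 CPM in cells alone and 1.44 to 10.03 CPM with SIS ECM. Bulk RNA cannot tell fewer cells of a kind from less RNA per cell, and this holds for every level below.

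Of 12269 genes tested, 3547 differed between SIS ECM culture and cells alone (28.9%; p below 0.05 in the quasi-likelihood test of edgeR after Benjamini-Hochberg adjustment, the source of every adjusted p below). Of these, 1857 rose (15.1%) and 1690 fell (13.8%), and these shares are the background printed for gene groups. They differ with the number of reads a gene received, as given below. A gene was tested if it had enough counts in as many libraries as a culture holds. A gene near that floor could thus be tested only through the culture where it was higher. For such a gene the filter favoured a call and a gap between the cultures. Most changes were small: the median among risen genes was 0.41 on the log2 scale and among fallen genes −0.24, and the median of all genes tested was 0.01. Large changes ran mostly upwards, with 222 genes at least 2-fold higher and 18 at least 2-fold lower. The cultures did not overlap over the 12 libraries for 506 genes that were higher with SIS ECM (4.12%) and for 347 that were lower (2.83%). With the replicate number as a block the count was 2278 (1308 higher, 970 lower), and without a term for range it was 1125 (746 and 379), all of which were among the 3547. Fits that left out 1 library each called 2832 to 4107 genes. Of the calls for single genes given with values below, those of Cd44, Timp3, Pdgfrb, Cdx2, Insig1, Lgals4 and Slfn9 were lost with the replicate block, as was that of Birc2.

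The direction of change also followed the number of reads a gene received. Among the fourth of tested genes with the lowest mean CPM, 16.9% rose and 3.98% fell. Among the fourth with the highest, 11.4% rose and 24.1% fell, and 3 were at least 2-fold higher and 0 at least 2-fold lower. For a list made mostly of genes with many reads, 11.4% and 24.1% are the nearer background. A share of falls near 24.1% does not set such a list apart. Long noncoding genes rose in 134 and fell in 68 of 1009, against 1683 and 1597 of 10817 protein-coding genes.

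The number ranges gave separate estimates of the SIS ECM effect. A test of the difference between them called 44 genes (0.359%), while 2243 genes had an unadjusted p below 0.05. That count rests on single libraries: it was 3167 without SIS ECM 3 and 0 without SIS ECM 6 or without cells-alone 1, 2 or 4. Log2 fold changes are therefore followed below, where it helps, by their values in libraries 1 to 3 and 4 to 6. For genes that changed, the call held in each of the 12 fits that left out 1 library unless the text says otherwise.

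**Figure D2:**
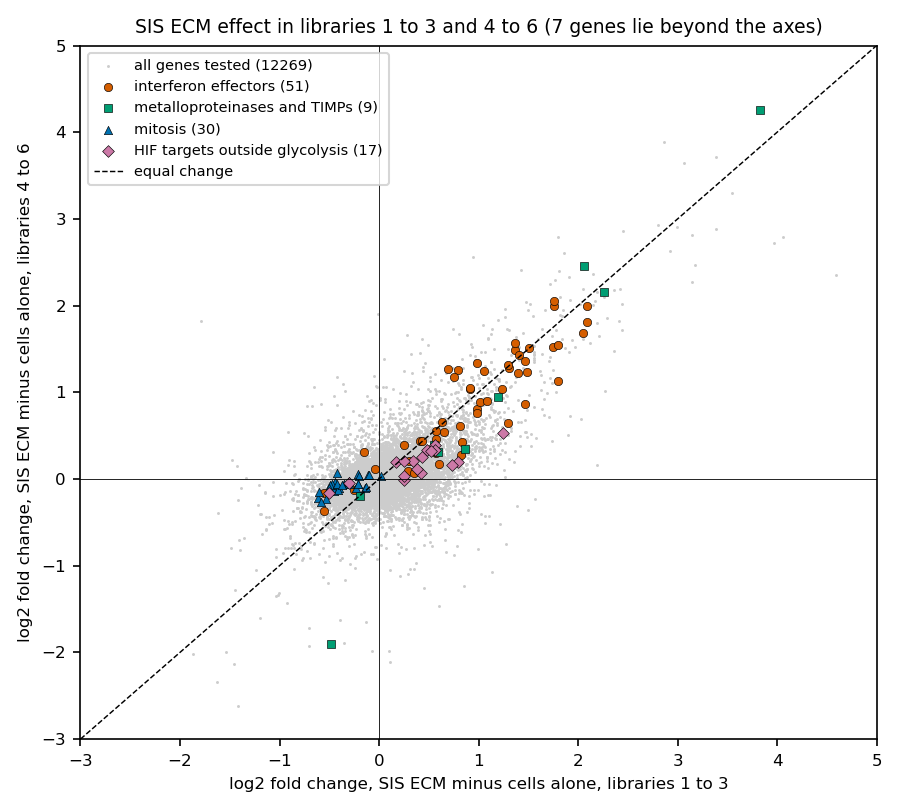
Log2 fold change (SIS ECM minus cells alone) of each tested gene in libraries 1 to 3 (horizontal) and libraries 4 to 6 (vertical), with 4 gene lists coloured and the line of equal change dashed; 7 genes lie beyond the axes. Interferon effectors mostly lie along the line in the upper right, whereas HIF targets and mitosis genes mostly lie nearer to 0 on the vertical axis than on the horizontal one.

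The largest rise among named genes was that of Mmp13, a secreted collagenase (ENSMUSG00000050578.10; mm10 chromosome 9, 7272514 to 7283331, plus strand). It was measured at 4.96 to 12.03 CPM (median 6.78) in the cells-alone libraries and at 100.3 to 149.7 CPM (median 118) with SIS ECM. The lowest SIS ECM library was many times the highest cells-alone library, in both ranges. The genes with the largest rises and falls were named only where the cultures separated within each range. For them that separation was set by the choice. The rise was 16.1-fold (log2 fold change 4.01 ± 0.10, adjusted p = 2.61e-13; 3.82 and 4.26 in the ranges). Slc1a2, a glutamate transporter best known from astrocytes (chromosome 2, 102658659 to 102790784, plus strand), stood at 1.38 to 5.18 CPM (median 2.55) in cells alone and 12.7 to 28.7 CPM (median 18.6) with SIS ECM. No SIS ECM library reached down to the others, and in both cultures libraries 1 to 3 were the higher ones. It rose 7.22-fold (log2 fold change 2.85 ± 0.14, adjusted p = 5.45e-10).

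Aldh3a1 encodes an aldehyde dehydrogenase that clears lipid-derived aldehydes (chromosome 11, 61207537 to 61218421, plus strand). Its level was 0.788 to 2.18 CPM (median 1.301) in cells alone and 5.45 to 15.6 CPM (median 9.48) with SIS ECM. The cultures did not overlap, and the log2 fold change was 2.79 ± 0.19 (adjusted p = 1.91e-08; 3.14 and 2.27). Cask, a scaffold kinase of cell junctions on the X chromosome (chromosome X, 13517080 to 13851367, minus strand), was at 0.725 to 2.12 CPM (median 1.35) in cells alone and at 5.698 to 11.96 CPM (median 7.56) with SIS ECM. Again no library overlapped, and the rise was 6.07-fold (adjusted p = 5.2e-10). Prl2c2, a placental prolactin-family hormone, was at 4.79 to 6.295 CPM (median 5.56) in cells alone and at 20.8 to 28.5 CPM (median 23.7) with SIS ECM. It rose by 2.12 ± 0.08 on the log2 scale, but its reads cannot be told apart with certainty from those of its near-copy Prl2c3.

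The next rises lay near 4-fold. Ces1f, a carboxylesterase, rose 4.28-fold, Slit3, a secreted guidance ligand, 4.26-fold, and Apol9b, an interferon-induced apolipoprotein L with a close copy in Apol9a, 4.14-fold. Ppef1, a calcium-regulated phosphatase, rose 3.94-fold and the orphan receptor Gpr141 3.89-fold. Gpnmb, a glycoprotein of lysosomes and melanosomes, was at 10.03 to 15.1 CPM (median 11.8) in cells alone and at 29.3 to 71.3 CPM (median 46.9) with SIS ECM. Its libraries separated fully, and libraries 1 to 3 were the higher ones in both cultures (2.21 and 1.65 on the log2 scale in the ranges).

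**Figure D3:**
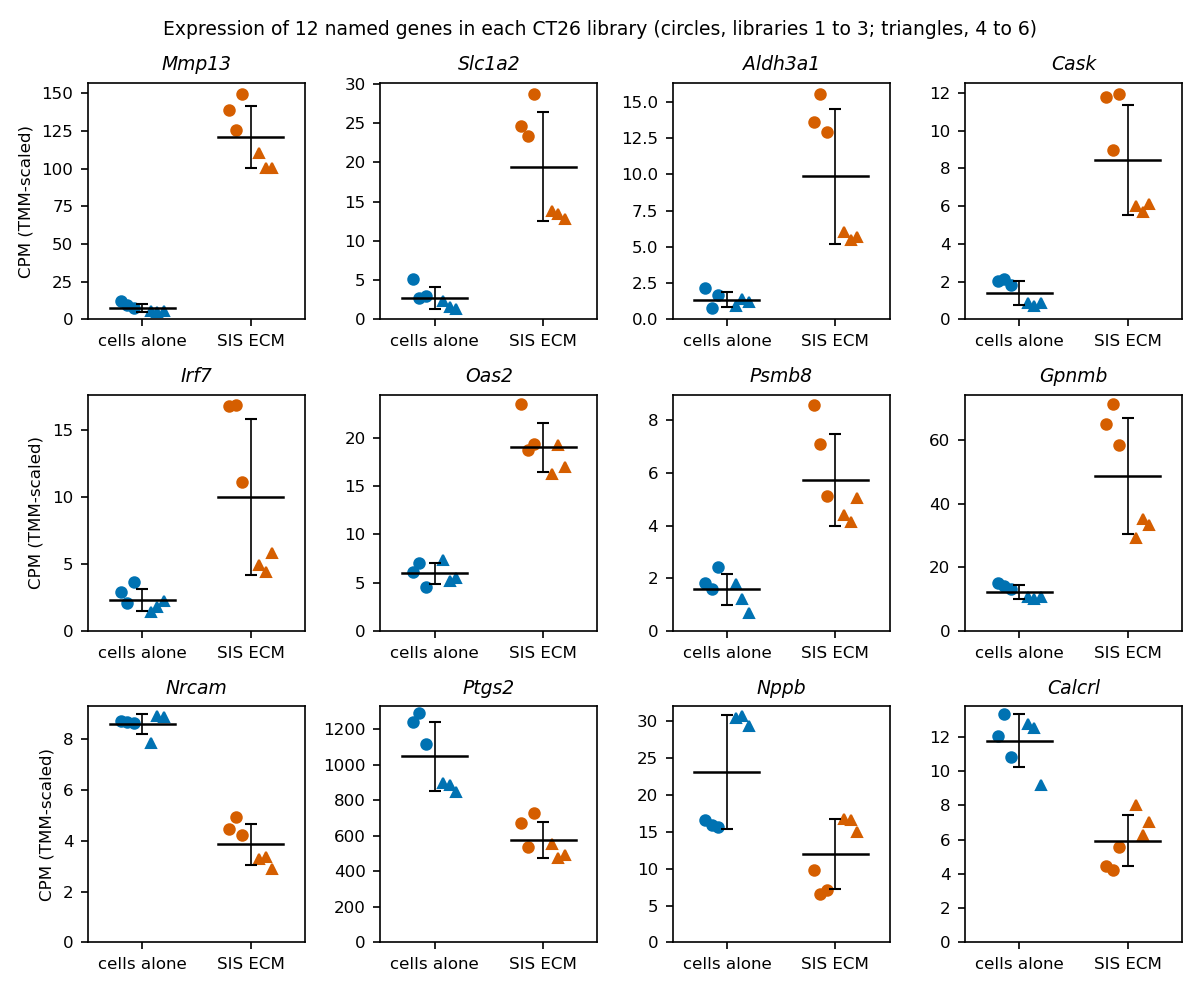
CPM of 12 named genes in each CT26 library (vertical axes start at 0), with circles for libraries 1 to 3, triangles for 4 to 6, and the mean ± SD over 6 libraries as a black line and bar. Mmp13 lies at or below 12.03 CPM in cells alone and at or above 100.3 CPM with SIS ECM, while Ptgs2 and Nrcam lie lower with SIS ECM in all 6 libraries.

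Falls were smaller. Nrcam, a neuronal-type adhesion molecule, was measured at 7.84 to 8.92 CPM (median 8.701) in cells alone and 2.89 to 4.95 CPM (median 3.78) with SIS ECM. Every SIS ECM library was lower than every cells-alone library, and the gene fell 2.23-fold (log2 fold change −1.16 ± 0.11, adjusted p = 7.04e-07). Ptgs2, the inducible cyclooxygenase that starts prostaglandin synthesis, was at 849 to 1290.3 CPM (median 1008) in cells alone and at 474 to 730.4 CPM (median 546) with SIS ECM (chromosome 1, 150100031 to 150108227, plus strand). There was no overlap, and the log2 fold change was −0.85 ± 0.07 (adjusted p = 2.42e-07; −0.91 and −0.79). Calcrl, the receptor partner for adrenomedullin, fell 2.02-fold, and Ccnb1ip1, an E3 ligase of cyclin B, 2.13-fold.

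The natriuretic peptide gene Nppb lay at 15.7 to 30.7 CPM (median 22.96) in cells alone and 6.53 to 16.7 CPM (median 12.4) with SIS ECM. Over all libraries the cultures overlapped, with libraries 4 to 6 the higher ones in both. Within each range every SIS ECM library was below every cells-alone library, which was a condition for naming Nppb (−1.04 and −0.90, adjusted p = 3.7e-07). Further named falls were the early response factor Egr3 (−0.94), the magnesium transporter family member Nipal1 (−0.87), the phosphatase Ptpn22 (−0.84), the helicase Dhx40 (−0.81), the protocadherin Pcdhgb7 (−0.82), the laminin chain Lama2 (−0.79) and the sialyltransferase St3gal6 (−0.86). St3gal6 fell further in libraries 1 to 3 (−1.14) than in 4 to 6 (−0.59; adjusted p of the difference = 0.0433).

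Among changed genes with the most reads, the MHC class I light chain B2m (0.68), the lysosomal membrane protein Lamp2 (0.72), the ribosomal protein Rpl39 (0.65), the dynein light chain Dynlt3 (0.62), the enolase Eno2 (0.74) and the ferritin light chain Ftl1 (0.73) rose on the log2 scale. Rpl39 and Ftl1 have processed copies elsewhere in the genome that can take up their reads. The mitochondrial ribosomal RNA mt-Rnr1 rose by 0.62 in these polyA libraries. The fatty acid elongase Elovl6 (−0.62) and the EGF-family ligand Ereg (−0.77) fell.

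Gene groups were described by lists of known members, of which 50 had at least 5 tested. The plot of lists orders them by their median log2 fold change, from the interferon-inducible GTPases down to the mitochondrially encoded genes. The lists were drawn up with earlier results of these data known, so their counts are read beside the background and carry no test of the list.

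**Figure D4:**
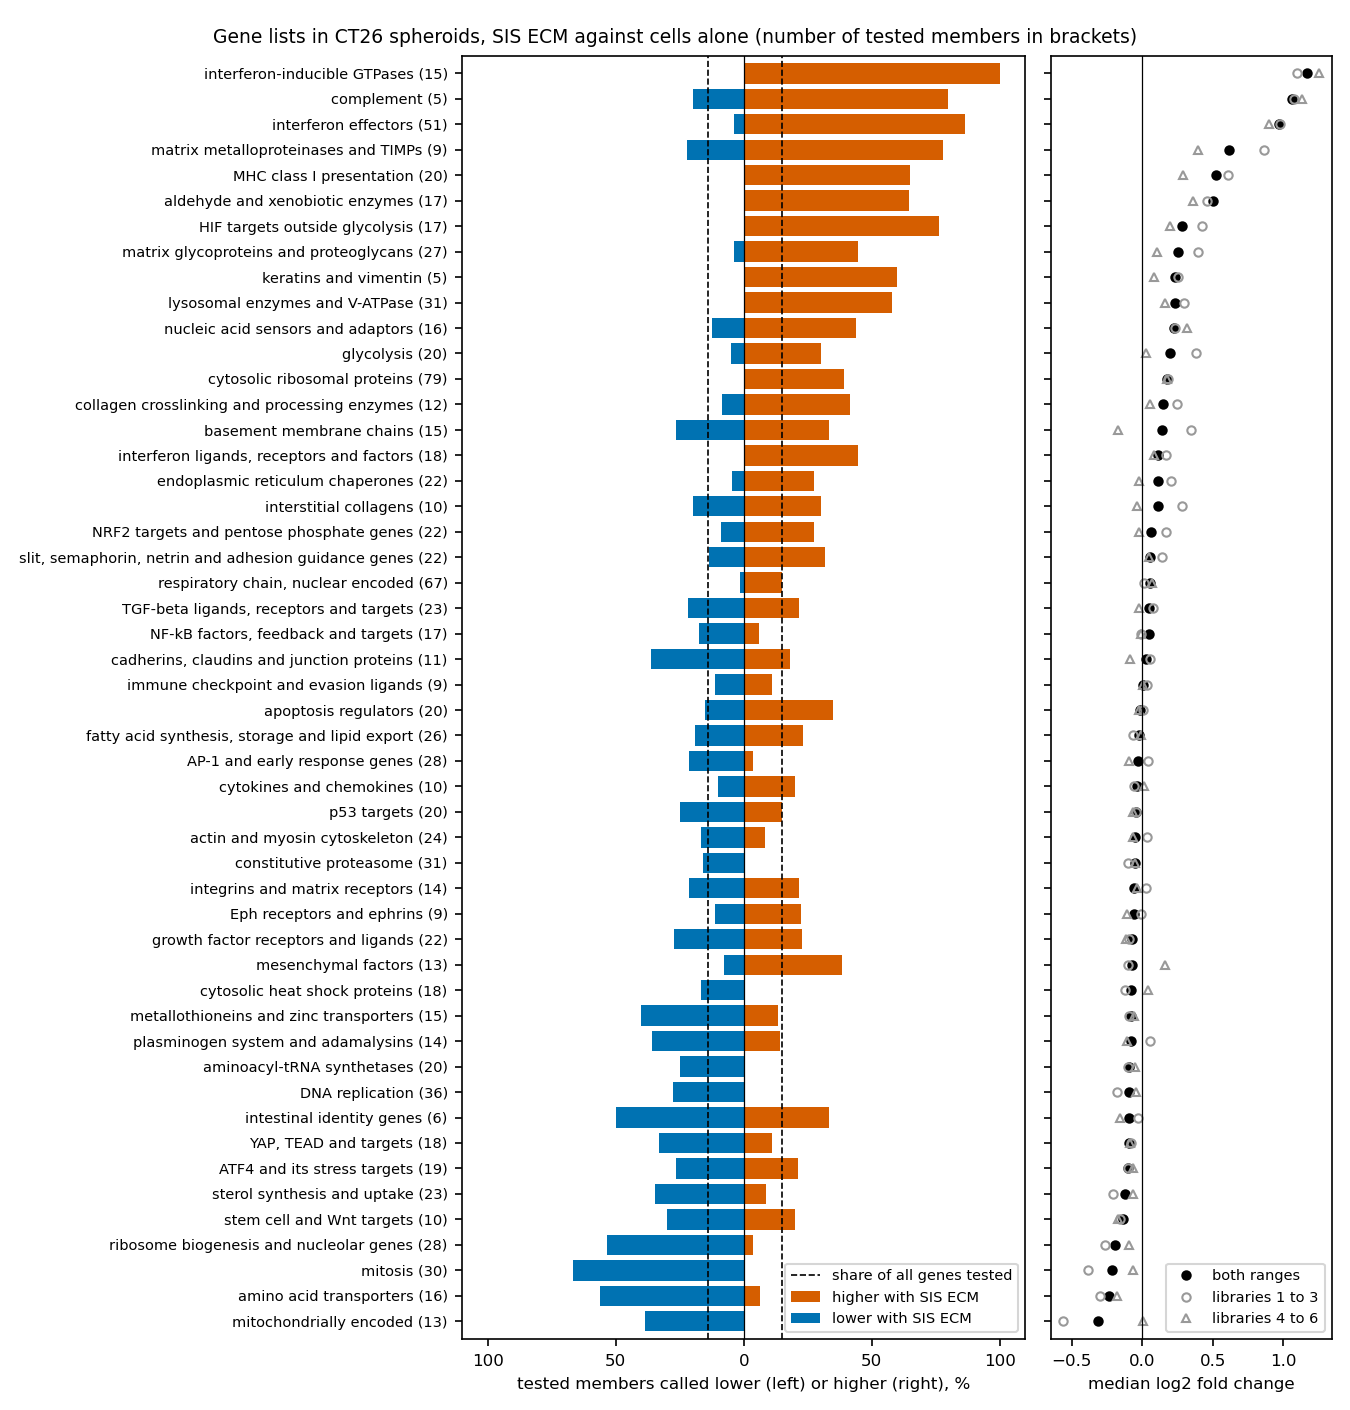
For each of 50 gene lists with at least 5 tested members, the share of tested members that rose (orange, right) or fell (blue, left), beside the share among all genes tested (dashed, 15.1% and 13.8%), and at right the median log2 fold change over all libraries and in each number range. Lists at the top hold interferon genes, complement, metalloproteinases and antigen presentation, and those at the bottom hold mitosis, amino acid transport and mitochondrially encoded genes.

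Interferon genes made up the broadest rise. Of 22 ligands, receptors and signalling factors 18 were tested, 8 rose and 0 fell (median log2 fold change 0.11). Ifnb1 and Ifnlr1, a ligand and a receptor, had too few counts to be tested. None of the tested receptor genes passed: Ifnar1 was 0.09 (adjusted p = 0.159), Ifnar2 0.09 (0.311) and Ifngr1 −0.08 (0.31). The changes lay in the factors downstream. Irf7, which amplifies the interferon response (chromosome 7, 141262706 to 141266481, minus strand), was at 1.398 to 3.66 CPM (median 2.15) in cells alone and 4.397 to 16.9 CPM (median 8.47) with SIS ECM. All SIS ECM libraries were the higher ones, and those numbered 1 to 3 stood above 4 to 6 (log2 fold change 2.01 ± 0.19, adjusted p = 1.21e-06; 2.36 and 1.48).

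Of the factors that carry the signal to the nucleus, Irf9 rose by 0.82, Stat2 by 0.53, Irf1 by 0.40 and Irf8, a factor of myeloid cells that was at no more than 1.45 CPM, by 2.03. At that level Irf8 may have been tested only through the SIS ECM libraries, so its rise may have been partly set by the filter. Sensors rose in 7 and fell in 2 of 16 tested (median 0.22). The RNA sensors Ifih1 (0.89), Ddx58 (0.76) and Dhx58 (1.48) and the Z-nucleic acid sensor Zbp1 (1.66) were among those that rose. The DNA sensor Cgas (−0.26 ± 0.07, adjusted p = 0.00771) and the kinase Tbk1 (−0.16 ± 0.04, adjusted p = 0.00936) were the 2 that fell.

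Interferon effectors rose in 44 and fell in 2 of 51 tested (median 0.97; 0.98 in libraries 1 to 3 and 0.90 in 4 to 6), and the fits without 1 library called 42 to 46 higher. With the replicate block 42 rose and 1 fell, and without a term for range 36 rose. Oas2, which makes oligoadenylates that switch on RNA decay (chromosome 5, 120730333 to 120749853, minus strand), was at 4.598 to 7.36 CPM (median 5.81) in cells alone and 16.3 to 23.6 CPM (median 18.99) with SIS ECM. No library overlapped (log2 fold change 1.68 ± 0.11, adjusted p = 2.26e-08). Isg15, whose promoter is shown above, was at 2.42 to 4.36 CPM (median 3.02) and 4.25 to 9.98 CPM (median 5.79). The cultures overlapped in 1 SIS ECM library over all ranges and in none within a range, and Isg15 rose 2.01-fold (adjusted p = 0.0002). Ifit3 was at 1.45 to 2.89 CPM (median 2.59) in cells alone and at 4.21 to 7.28 CPM (median 4.97) with SIS ECM. It rose 2.22-fold with no overlap, though its reads can be shared with the close copy Ifit3b.

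Usp18, the protease that removes Isg15 from proteins, rose by 1.89, Ifi27l2a by 1.94, the antiviral GTPase Mx1 by 1.86 and the radical SAM enzyme Rsad2 by 1.13 on the log2 scale. Levels of many effectors were low even with SIS ECM, such as Mx1 at 1.205 to 1.89 CPM (median 1.32). Ifit2, which belongs to the same gene family as Ifit3, went the other way. It was at 28.8 to 36.04 CPM (median 32.8) in cells alone and 20.95 to 24.7 CPM (median 23.4) with SIS ECM. All 6 SIS ECM libraries were the lower ones, and it fell (−0.47 ± 0.06, adjusted p = 4.25e-05; −0.56 and −0.37). Slfn9, the other effector that fell, changed by −0.19. Of effectors that rose and had a promoter in the table, 16 of 34 held the interferon element (47.1%).

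All 15 tested interferon-inducible GTPases rose (median 1.17, 14 or 15 in each fit without 1 library). Gbp4, a guanylate-binding protein of a chromosome 5 cluster, was at 0.426 to 0.891 CPM (median 0.759) in cells alone and at 2.71 to 4.85 CPM (median 2.81) with SIS ECM. The libraries separated fully and Gbp4 rose 4.52-fold (adjusted p = 2.87e-07). Tgtp2 rose by 1.90 ± 0.16, though its near-copy Tgtp1 can share its reads, Gbp2 by 0.72, Irgm1 by 0.57 and Iigp1 by 1.28. Of the 10 with a promoter in the table, 9 held the interferon element.

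Antigen presentation on MHC class I rose in 13 and fell in 0 of 20 (median 0.52; 0.61 and 0.29), with 12 rises with the replicate block and 9 without a term for range. Of 11 that rose and had a promoter in the table, 2 held the interferon element. The heaviest-read member, B2m, lay at 410.2 to 527 CPM (median 461) in cells alone and 618 to 923 CPM (median 745) with SIS ECM. No SIS ECM library reached down to the cells-alone range (log2 fold change 0.68 ± 0.05, adjusted p = 3.27e-08). The immunoproteasome subunit Psmb8, which replaces a constitutive subunit, was at 0.691 to 2.44 CPM (median 1.67) and 4.15 to 8.58 CPM (median 5.09). It rose 3.61-fold with full separation, Psmb9 rose 2.42-fold, the peptide pump Tap1 2.11-fold and the class I transactivator Nlrc5 2.09-fold. The heavy chains H2-K1 (0.42) and H2-D1 (0.38) rose less, and copies of this gene family can exchange reads. Of the constitutive proteasome, by contrast, 0 of 31 rose and 5 fell (3 without cells-alone 2, 11 without SIS ECM 4, 1 with the replicate block; median −0.05).

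Of 38 cytokines and chemokines 10 had enough counts to be tested, 2 rose and 1 fell (median −0.04; 1 rise without cells-alone 1 and 2 falls without SIS ECM 6), and Ccl2 and Cxcl10 were among those not tested. The chemokine Ccl9 rose by 0.98, at no more than 2.52 CPM. NF-kB factors and targets rose in 1 and fell in 3 of 17, with Ptgs2 among the falls (median 0.05), and the call of the single gene that rose, Birc2, was lost in 8 of the 12 fits without 1 library. Checkpoint and evasion ligands rose in 1 and fell in 1 of 9 (median 0.0048), and Cd274, the ligand of PD-1, was 0.21 ± 0.12 (adjusted p = 0.212). Complement genes changed in all 5 tested members, of which 4 rose and 1 fell (median 1.06). C1s1, a serine protease of the first complement component, was at 13.8 to 20.8 CPM (median 16.3) in cells alone and 28.9 to 41.1 CPM (median 34.98) with SIS ECM. Its libraries separated fully (log2 fold change 1.06 ± 0.06, adjusted p = 1.64e-09), and the protease C1ra (0.92) rose with it.

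Secreted proteases formed the next group. Every tested member of the metalloproteinase and TIMP list changed, 7 up and 2 down of 9 (median 0.61), and 15 other members, Mmp2, Mmp7 and Mmp9 among them, had too few counts. The 7 include Mmp3 and Mmp10, which had enough counts to be tested only in the SIS ECM libraries. Their place among the rises was thus partly set by the filter. Mmp3, a stromelysin that also activates other metalloproteinases, was at 0.0576 to 0.406 CPM (median 0.261) in cells alone and at 0.601 to 1.43 CPM (median 1.28) with SIS ECM, and Mmp10 was at 0.0576 to 0.355 CPM (median 0.23) and at 0.732 to 1.23 CPM (median 1.03). Neither overlapped between cultures, which the filter favoured, and the log2 fold changes were 2.23 ± 0.32 and 2.21 ± 0.32 (adjusted p = 8.33e-05 and 9.19e-05). Both sit with Mmp13 in 1 cluster on chromosome 9, and the AP-1 match of each is shown above. Levels stayed near 1 CPM for both, so counts per library were small.

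The membrane-bound Mmp14 was at 53.3 to 65.6 CPM (median 57.9) in cells alone and 70.9 to 102 CPM (median 73.7) with SIS ECM, again without overlap (log2 fold change 0.47 ± 0.07, adjusted p = 0.000182). Mmp19 rose by 1.09 and Mmp11 by 0.61. The inhibitors divided. Timp2 rose by 0.45 ± 0.06 (adjusted p = 1.87e-05), Timp1 fell (−0.19 ± 0.05, adjusted p = 0.00973), and Timp3, at under 1 CPM, was lower with an adjusted p of 0.0381 that was lost in 7 of the 12 fits without 1 library.

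Plasminogen system and adamalysin genes rose in 2 and fell in 5 of 14 (median −0.08). The urokinase receptor Plaur rose (0.33). The sheddase Adam17 fell (−0.33), and Adamts4, a proteoglycan-cleaving protease, rose by 1.11.

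Matrix genes moved in both directions. Interstitial collagens rose in 3 and fell in 2 of 10 (median 0.11; 0.28 and −0.03 in the ranges), with 1 fall without cells-alone 1, 2 or 3 or SIS ECM 1 or 2. Col3a1 was at 5.29 to 20.9 CPM (median 10.3) in cells alone and 10.6 to 33.5 CPM (median 17.2) with SIS ECM, and Col1a2 was at 448 to 665 CPM (median 534) and 369 to 555 CPM (median 417). Both overlapped over all libraries and separated within ranges: Col3a1 rose by 0.75 ± 0.12 (adjusted p = 0.000232) and Col1a2 fell (−0.29 ± 0.06, adjusted p = 0.00144). Col6a3 rose by 1.70 at no more than 1.34 CPM, and Col1a1 was 0.13 ± 0.16 (adjusted p = 0.584). At its level Col6a3 may have been tested only through the SIS ECM libraries, which favours a rise.

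Basement membrane chains rose in 5 and fell in 4 of 15 (3 and 2 with the replicate block; median 0.14, but 0.35 in libraries 1 to 3 and −0.17 in 4 to 6), and each of 6 omissions of a library (cells-alone 1, 3 or 5, SIS ECM 1, 5 or 6) left 3 rises. The laminin chain Lama3 was at 7.43 to 9.899 CPM (median 8.15) and 12.9 to 26.3 CPM (median 18.99). The cultures separated fully and it rose by 1.17 ± 0.09 (adjusted p = 1.38e-07), and the type IV collagen chain Col4a1 rose by 0.51. Matrix glycoproteins rose in 12 and fell in 1 of 27 (median 0.25), with 7 rises without cells-alone 2 or SIS ECM 1 and 8 with the replicate block.

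Thbs2, a matricellular thrombospondin, led that group, at 24.1 to 57.1 CPM (median 40.7) in cells alone and 71.2 to 225 CPM (median 138) with SIS ECM. Every SIS ECM library was above every cells-alone library (log2 fold change 1.70 ± 0.07, adjusted p = 2.35e-10). Tenascin C (Tnc) rose by 1.48 at low levels and Sparc fell (−0.34). Fibronectin (Fn1) did not pass over all libraries (0.15 ± 0.09, adjusted p = 0.241). Its SIS ECM libraries lay above the cells-alone libraries in range 1 to 3 and below them in range 4 to 6 (0.39 and −0.10, adjusted p of the difference = 0.0918). Collagen crosslinking and processing enzymes rose in 5 and fell in 1 of 12 (median 0.15), with the transglutaminase Tgm2 at 1.13. Integrins and matrix receptors rose in 3 and fell in 3 of 14 (1 fall with the replicate block; median −0.06). The laminin-binding chain Itga6 fell (−0.43 ± 0.05, adjusted p = 8.51e-06), the hyaluronan receptor Cd44 fell (−0.19), and Itgb8, a chain that activates TGF-beta, rose by 1.06.

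Lysosomal genes rose in 18 and fell in 0 of 31 (median 0.23; 0.30 and 0.16), with 18 to 21 rises in the fits without 1 library and 4 without a term for range. Lamp2 was at 206 to 252 CPM (median 239.8) in cells alone and 318 to 456 CPM (median 402) with SIS ECM. The cultures did not overlap (log2 fold change 0.72 ± 0.07, adjusted p = 6.95e-07). Its sister protein Lamp1 was 0.06 ± 0.05 (adjusted p = 0.442). The cathepsins Ctsb (0.46) and Ctsd (0.42), the sterol carrier Npc2 (0.57), the glycogen-degrading Gaa (0.69) and the hexosaminidase Hexa (0.65) rose. For Hexa the effect differed between ranges (0.87 and 0.41, adjusted p of the difference = 0.0412), and Cd68, the lysosomal glycoprotein among the leukocyte markers, differed in the same sense (1.89 and 0.51, adjusted p = 0.0366).

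Aldehyde and xenobiotic enzymes rose in 11 and fell in 0 of 17 (median 0.50), and 8 to 10 rose in the fits without 1 library. With the replicate block 8 rose. Akr1c18, which reduces progesterone, was at 3.698 to 5.65 CPM (median 5.09) in cells alone and 13.9 to 19.2 CPM (median 16.1) with SIS ECM. It separated fully and rose by 1.75 ± 0.08 (adjusted p = 2.46e-10); the Akr1c genes resemble one another closely. Akr1c13 rose by 1.59 at no more than 1.26 CPM, and the aryl hydrocarbon receptor Ahr, which switches on many such enzymes, by 0.50. At its level Akr1c13 may have been tested only through the SIS ECM libraries, which favours a rise. NRF2 targets and pentose phosphate genes rose in 6 and fell in 2 of 22 (median 0.06; 4 falls without SIS ECM 3). Nqo1, a quinone reductase that is often used as a readout of NRF2, was at 2.49 to 3.71 CPM (median 3.49) in cells alone and at 0.854 to 1.797 CPM (median 1.19) with SIS ECM. No library overlapped, and the log2 fold change was −1.39 ± 0.17 (adjusted p = 1.79e-05). The glutathione transferase Gsta4 rose by 0.95, and the heme oxygenase Hmox1 by 0.69, with 1.19 and 0.17 in the ranges (adjusted p of the difference = 0.0302).

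Genes induced by low oxygen had their higher medians in libraries 1 to 3. HIF targets outside glycolysis rose in 13 and fell in 0 of 17 (median 0.28; 0.43 in libraries 1 to 3 and 0.20 in 4 to 6), with 13 or 14 rises in each fit without 1 library and 2 without a term for range. The vascular growth factor Vegfa was at 207 to 265 CPM (median 235) in cells alone and 257 to 380.4 CPM (median 324) with SIS ECM. SIS ECM libraries 1 to 3 were clear of their cells-alone counterparts and libraries 4 to 6 overlapped. Over all libraries it rose by 0.45 ± 0.09 (adjusted p = 0.00151; 0.73 and 0.17, adjusted p of the difference = 0.0356).

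Ndrg1, a stress-response gene induced by low oxygen, followed the same course (0.80 and 0.19, adjusted p of the difference = 0.0153), and the carbonic anhydrase Car9 rose by 0.28 ± 0.05 (adjusted p = 0.000688; 0.34 and 0.21). Glycolysis genes rose in 6 and fell in 1 of 20 (3 and 0 with the replicate block; median 0.20; 0.38 and 0.03). The 6 rises became 10 without SIS ECM 3 and 3 without cells-alone 1, 2 or 3 or SIS ECM 1, and the fall was lost without cells-alone 2. Pgk1, the X-linked phosphoglycerate kinase, was at 4781 to 5795 CPM (median 5208) in cells alone and at 6036 to 7398 CPM (median 6752) with SIS ECM, separated fully and rose by 0.36 ± 0.04 (adjusted p = 1.84e-05). Eno2, an enolase of neurons, was higher with SIS ECM in both ranges but further in libraries 1 to 3 (1.15 and 0.32, adjusted p of the difference = 0.027), and the glucose transporter Slc2a1 did not pass (0.65 and −0.05).

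Transcripts of mitochondrial DNA fell in 5 and rose in 0 of 13 protein-coding members (median −0.31; −0.56 and 0.01), with 8 falls without SIS ECM 4 and 0 without a term for range. The cytochrome b gene mt-Cytb was at 7453 to 13323 CPM (median 10200.3) and 4764 to 12593 CPM (median 8033), and libraries 4 to 6 were the higher ones in both cultures, which overlapped. It fell (−0.41 ± 0.08, adjusted p = 0.00106; −0.63 and −0.19). Nuclear genes of the respiratory chain rose in 10 and fell in 1 of 67 (median 0.05), with 7 falls without SIS ECM 4, 3 without SIS ECM 3 or cells-alone 4, and 2 without SIS ECM 5 or cells-alone 5 or 6. With the replicate block 7 rose.

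Mitosis genes fell in 20 and rose in 0 of 30 (median −0.21; −0.39 in libraries 1 to 3 and −0.06 in 4 to 6), with 17 to 22 falls in the fits without 1 library, 9 with the replicate block, 5 without a term for range, 20 in libraries 1 to 3 alone and 5 in libraries 4 to 6 alone. Cenpe, a kinetochore motor, was at 378 to 447 CPM (median 427) in cells alone and 257 to 388 CPM (median 319.9) with SIS ECM. It overlapped in 1 SIS ECM library and fell (−0.43 ± 0.06, adjusted p = 0.000161; −0.59 and −0.27). The spindle motor Kif11 fell (−0.42) and so did cyclin B1 (−0.30 for Ccnb1), while the kinase Plk1 was −0.11 ± 0.07 (adjusted p = 0.265). DNA replication genes fell in 10 and rose in 0 of 36 (median −0.09; 5 with the replicate block). The primase Prim1 fell (−0.35), and the helicase subunit Mcm2 was 0.04 ± 0.06 (adjusted p = 0.68).

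Genes that build ribosomes and genes of the ribosome itself had medians of opposite sign. Ribosome biogenesis and nucleolar genes fell in 15 and rose in 1 of 28 (median −0.19), with 15 or 16 falls in the fits without 1 library, while no rise was called in 8 of them. With the replicate block 12 fell and 0 rose. Rrp12, which matures ribosomal RNA, was at 20.6 to 26.6 CPM (median 23.6) and 12.4 to 20.6 CPM (median 18.9), with no overlap (log2 fold change −0.38 ± 0.10, adjusted p = 0.0125), and the pseudouridine synthase Dkc1 fell further in libraries 1 to 3 (−0.66) than in 4 to 6 (−0.09; adjusted p of the difference = 0.0302). Fbl, which methylates ribosomal RNA, was −0.04 ± 0.07 (adjusted p = 0.667). Cytosolic ribosomal proteins rose in 31 and fell in 0 of 79 (median 0.18, the same in both ranges to 2 decimals). With each range fitted alone there were 3 rises and 1 fall in libraries 1 to 3 and 44 rises and 0 falls in libraries 4 to 6. The 31 rises rest on single libraries, being 59 without SIS ECM 3 and 20 without cells-alone 5, and the count was 18 with the replicate block and 0 without a term for range. Rpl3 rose by 0.22 ± 0.05 (adjusted p = 0.00229), and Rpl39, on the X chromosome, had the largest rise in the list, with 458 to 840.3 CPM (median 647) in cells alone and 639 to 1532 CPM (median 1041) with SIS ECM. It overlapped over all libraries and separated within ranges (adjusted p = 1.28e-06).

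Amino acid transporters fell in 9 and rose in 1 of 16 (median −0.24), the single rise being Slc1a2. Slc38a4, a carrier of neutral and cationic amino acids, was at 49.6 to 52.1 CPM (median 51.2) in cells alone and 27.7 to 47.6 CPM (median 37.8) with SIS ECM. All SIS ECM libraries were lower (log2 fold change −0.45 ± 0.08, adjusted p = 0.000502). The glutamine carrier Slc1a5 fell (−0.35), the cystine carrier Slc7a11 (−0.32) and the leucine carrier Slc7a5 (−0.28).

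ATF4 and its stress targets rose in 4 and fell in 5 of 19 (2 rises with the replicate block; median −0.10), with 2 rises without cells-alone 1, 2 or 4. The asparagine synthetase Asns fell (−0.34) and the stress factor Ddit3 rose by 0.71 with full separation. Aminoacyl-tRNA synthetases fell in 5 of 20 and rose in 0 (3 falls with the replicate block; median −0.09), with 8 falls without SIS ECM 4. Endoplasmic reticulum chaperones rose in 6 and fell in 1 of 22 (median 0.11), and cytosolic heat shock proteins rose in 0 and fell in 3 of 18 (median −0.08). Metallothioneins and zinc transporters rose in 2 and fell in 6 of 15 (0 and 3 with the replicate block; median −0.08), and both rises were lost in some fits without 1 library, with 0 to 4 called.

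Growth factor ligands were among the falls. Growth factor receptors and ligands rose in 5 and fell in 6 of 22 (median −0.07; 4 falls with the replicate block), and Egfr, the receptor of Ereg and Areg, had too few counts to be tested. Ereg was at 217 to 265 CPM (median 243) in cells alone and 105 to 174 CPM (median 150.4) with SIS ECM. The cultures separated fully (log2 fold change −0.77 ± 0.09, adjusted p = 7.18e-06). Areg, a neighbour of Ereg on chromosome 5, fell (−0.69 ± 0.11, adjusted p = 0.000278), the fibroblast growth factor Fgf2 fell (−0.70 ± 0.08, adjusted p = 1.22e-05) and the receptor kinase Axl (−0.24).

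AP-1 and early response genes rose in 1 and fell in 6 of 28 (median −0.03), with 2 rises without cells-alone 6. Egr3 was at 21.5 to 25.6 CPM (median 23.6) and 10.3 to 14.8 CPM (median 11.5), separated fully and fell (−0.94 ± 0.07, adjusted p = 7.43e-08), and the ERK phosphatases Dusp6 (−0.31) and Dusp5 (−0.34) and the pleckstrin-domain gene Phlda1 (−0.37) fell with it. YAP, TEAD and their targets rose in 2 and fell in 6 of 18 (median −0.10). The YAP target Ankrd1 was at 62.04 to 74.4 CPM (median 69.2) and 33.1 to 49.9 CPM (median 38.6). All SIS ECM libraries were lower, and it fell (−0.79 ± 0.09), further in libraries 1 to 3 (−1.08) than in 4 to 6 (−0.51; adjusted p of the difference = 0.0302). TGF-beta ligands, receptors and targets rose in 5 and fell in 5 of 23 (median 0.05), with 3 falls without cells-alone 2. Actin and myosin genes rose in 2 and fell in 4 of 24 (1 fall with the replicate block; median −0.05), with 5 rises without SIS ECM 3 and 2 falls without cells-alone 1, 2 or 3 or SIS ECM 1 or 2.

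Lipid genes moved in both directions. Fatty acid synthesis, storage and export genes rose in 6 and fell in 5 of 26 (3 rises with the replicate block; median −0.03), with 3 rises without cells-alone 2 or 4 or SIS ECM 1 and 8 falls without SIS ECM 4. Abca1, which exports cholesterol and phospholipid, was at 59.4 to 101 CPM (median 74.1) in cells alone and 113 to 224 CPM (median 151) with SIS ECM. Its libraries did not overlap, and it rose by 1.03 ± 0.06 (adjusted p = 4.14e-09). Elovl6 was at 186 to 205 CPM (median 194) in cells alone and at 104 to 151 CPM (median 132) with SIS ECM, also with full separation (−0.87 and −0.37, adjusted p of the difference = 0.0308), and the acyl-CoA synthetase Acsl5 fell (−0.46). Sterol synthesis and uptake genes rose in 2 and fell in 8 of 23 (median −0.12). Hmgcs1, at the start of that pathway, fell (−0.26 ± 0.06, adjusted p = 0.00445), and Insig1, which restrains it, rose by 0.19.

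Identity genes moved singly. Keratins and vimentin rose in 3 and fell in 0 of 5 (median 0.23). Krt18 was at 5.29 to 8.91 CPM (median 6.75) in cells alone and 10.7 to 21.3 CPM (median 12.6) with SIS ECM. With no overlap, it rose by 1.09 ± 0.13 (adjusted p = 1.06e-05), while its usual partner Krt8 stayed at or below 0.121 CPM in every library. Cadherins, claudins and junction genes rose in 2 and fell in 4 of 11 (median 0.03), with 1 rise without SIS ECM 1. The intestinal cadherin Cdh17 was at 1.62 to 3.52 CPM (median 2.47) and 5.89 to 11.6 CPM (median 9.54), separated fully and rose by 1.87 ± 0.11 (adjusted p = 3.87e-09).

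Intestinal identity genes rose in 2 and fell in 3 of 6 (median −0.09), with 1 rise in 8 of the fits without 1 library. The factors Klf4 (−0.32) and Klf5 (−0.27) fell, and the intestinal master factor Cdx2 was at 0.66 to 1.17 CPM (median 0.738) in cells alone and 0.366 to 0.614 CPM (median 0.508) with SIS ECM. Its 6 SIS ECM libraries were the lower ones, but the call (adjusted p = 0.038) was lost in 6 of the 12 fits without 1 library. Mesenchymal factors rose in 5 and fell in 1 of 13 (median −0.07, 3 falls without SIS ECM 3 or 4 and 2 without cells-alone 6), with Zeb1 at 0.55 ± 0.05 (adjusted p = 1.14e-06). Stem cell and Wnt targets rose in 2 and fell in 3 of 10 (median −0.14), with 5 falls without cells-alone 4 or 6 and 1 rise without cells-alone 1, 2 or 3 or SIS ECM 3, and Lef1, a nuclear partner of beta-catenin, fell (−0.47). Of the 5 fibroblast markers tested 3 rose (Dcn, Pdgfra and Pdgfrb, at 0.64, 0.47 and 0.29) and 1 fell (Col1a2). The call of Pdgfrb was lost in 9 of the 12 fits without 1 library. Of the 4 intestinal epithelial markers tested Krt18, Krt20 and Lgals4 rose, Lgals4 in 4 of those 12 fits, and Cdx2 fell.

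Guidance genes rose in 7 and fell in 3 of 22 (median 0.06). Slit3 was at 2.19 to 6.05 CPM (median 3.69) in cells alone and 11.1 to 26.3 CPM (median 14.8) with SIS ECM. No library overlapped (log2 fold change 2.09 ± 0.13, adjusted p = 1.01e-08). The semaphorin co-receptor Nrp1 rose by 0.71, the semaphorin receptor Plxnb1 by 1.01, and Sema7a fell (−1.23) with Nrcam. Eph receptors and ephrins rose in 2 and fell in 1 of 9 (median −0.06). Apoptosis regulators rose in 7 and fell in 3 of 20 (4 rises with the replicate block; median −0.02), with 4 rises without cells-alone 6 and 5 falls without that library or SIS ECM 3. The inflammatory pore-former Gsdmd rose by 0.58 ± 0.08 (adjusted p = 5.77e-05), the caspases Casp12 and Casp4 by 0.58 and 0.48, and the survival factor Bcl2l1 fell (−0.21). p53 targets rose in 3 and fell in 5 of 20 (3 falls with the replicate block; median −0.05), with 3 falls without cells-alone 1.

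Position along the genome showed a pattern that no list held. In the first 40 Mb of the X chromosome (mm10), 58 of 91 tested genes rose (63.7%) and 1 fell, with a median log2 fold change of 0.34 (0.38 in libraries 1 to 3, 0.29 in 4 to 6). Over the rest of the X chromosome 56 of 285 rose and 50 fell (median −0.02), and on the autosomes 14.7% of genes rose and 13.8% fell. The 40 Mb boundary was set after the values were seen, so the contrast is a description with no test. Of 215 windows of 10 Mb with at least 20 tested genes, the first window of the X chromosome had the highest median (0.38, 25 of 31 genes higher) and the window from 30 to 40 Mb the second highest (0.25). From the 5th to the 95th percentile the window medians ran from −0.11 to 0.11. Autosomes also departed from their pooled shares. The window from 170 to 180 Mb of chromosome 1 ranked 3 (0.22, 30 of 61 genes higher). The lowest of all was 30 to 40 Mb of chromosome 19 (−0.17, 17 of 40 lower). Over chromosome 19, 119 of 426 genes fell (27.9%) and 33 rose (median −0.09). On chromosome 3, 24.1% fell and 13.7% rose, and on chromosome 18, 25.1% rose and 8.46% fell.

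Each SIS ECM library showed the shift. For each library the log2(CPM + 1) level of every gene in the stretch was set against the mean of the other cells-alone libraries of its range. The median of these differences was 0.27 to 0.38 in the 6 SIS ECM libraries and −0.06 to 0.06 in the 6 cells-alone libraries. Cask, Lamp2, Rpl39 and Dynlt3 lie there. So does Usp11, a deubiquitinase (chromosome X, 20703906 to 20720539, plus strand), at 15.04 to 18.9 CPM (median 17.9) in cells alone and 29.4 to 39.1 CPM (median 35.1) with SIS ECM. It separated fully and rose by 0.98 ± 0.07 (adjusted p = 6.2e-08). The kinase Araf, the next tested gene along, rose by 0.54 ± 0.04 (adjusted p = 2.13e-07), and Atp6ap2, a subunit of the proton pump, by 0.67 ± 0.05 (adjusted p = 1.52e-07). The 1 gene that fell there was Timp1. The longest run of neighbouring tested genes that all rose, 13 from Ccdc120 to Rbm3 (mm10 chromosome X, 7731714 to 8145880), was in this stretch. X-linked copy number was not measured in these libraries.

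**Figure D5:**
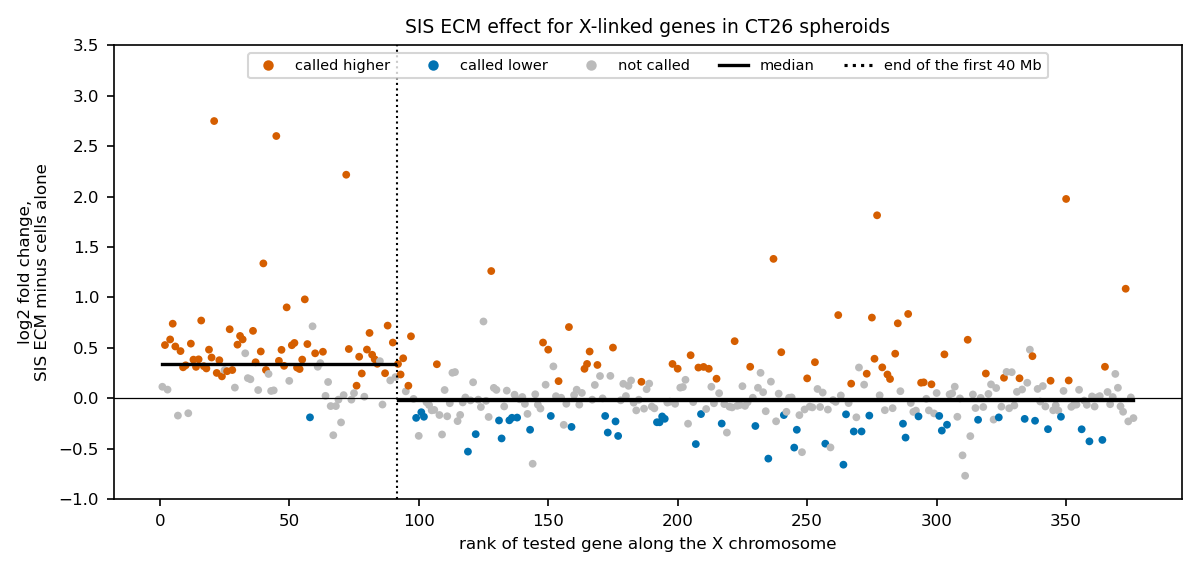
Log2 fold change (SIS ECM minus cells alone) of the 376 tested X-linked genes in their order along the chromosome, with orange for genes that rose and blue for genes that fell. Points left of the dotted line (the first 91 genes, up to 40 Mb) lie mostly above 0 with a median of 0.34, and those right of it scatter around a median of −0.02.

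Outside the X chromosome, several runs of neighbouring tested genes rose together. The 6 tested Oas genes Oas2, Oas3, Oas1c, Oas1b, Oas1g and Oas1a on chromosome 5 (120730333 to 120907521) rose by 0.88 to 1.68 on the log2 scale. The antigen processing genes Psmb9, Tap1, Psmb8 and Tap2 on chromosome 17 (34181987 to 34216321) rose by 1.00 to 1.85. On chromosome 6 (124430759 to 124636085) the complement-related genes C1rl, C1ra, C1s1 and C1s2 and their neighbour Clstn3, which is no complement gene, rose by 0.92 to 1.298.

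The authors' deposited table of this comparison lists 13101 genes, with 785 higher and 766 lower at an adjusted p below 0.05. Of its 1496 such genes that were also tested here, 1406 were called here, out of 3514 genes called here that the table holds, and 0 of the 1406 had the opposite sign. In the authors' deposited table of Hallmark gene sets the highest normalised enrichment scores were those of the interferon alpha (3.03) and interferon gamma (2.94) responses and of hypoxia (2.12). Its lowest were those of E2F targets (−2.42), the G2M checkpoint (−2.35) and MYC targets (−1.92). Both tables come from the same libraries.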

How the data were processed

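RNA of CT26 spheroids (10 per tube, day 7) was extracted with TRIzol and RNeasy Micro columns, made into libraries with Illumina Stranded mRNA Prep and read paired-end, per the labels' protocols. The authors deposited expected counts per gene for each library. The submitters' processing notes name cutadapt 1.18, STAR 2.7.0f, RSEM 1.3.1, limma and the mm10 build without their roles, and none of the sources used here gives the strand setting. The authors also deposited a table of this comparison with log2 fold changes, p-values and a t score per gene, and enrichment scores with p-values for Hallmark gene sets, printed only where named. Another 22 per-sample columns of the count table were not used here.

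Expected counts were rounded, and 12269 of 55450 genes passed filterByExpr of edgeR (minimum count 10, grouped by culture). A gene could pass through either culture alone. The main test was the robust quasi-likelihood F test of edgeR 4.0.16 (R 4.3.3) on TMM-scaled counts, with terms for culture and number range, Benjamini-Hochberg adjustment over all tested genes and a threshold of 0.05. CPM values use the TMM factors, and ± after a log2 fold change is its standard error. On simulated counts for these genes, 47 of 50 genes set 0.58 higher on the log2 scale were recovered, 46 of 50 set 0.58 lower, and 50 of 50 set 1 higher or lower. The simulation gave every gene the same spread beyond counting noise (8.86%) and drew libraries independently. It therefore does not show recovery for genes with a wider spread or where a library stands apart. No libraries held identical counts. Libraries with the same number deviated together from their culture means (correlations of 0.22 to 0.48). After centring within ranges these correlations were −0.37 to 0.07. A fit with the number as a block was also made. It is given for each gene with values whose call it changed and for some lists. Counts of other lists can change with it too.

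Genes were named by 4 rules: the 12 largest changes in each direction among called, abundant genes (mean log2 CPM of at least 2) whose cultures separated in both ranges, leaving out predicted and clone-named genes; the 10 called genes with the most counts and a log2 change of at least 0.58; the first 3 and up to 4 called members per direction of each list; and those among them whose effect differed between ranges. Of 172 genes given with values, 32 fell outside these rules and were chosen after their values were seen. Some genes that the rules select are not reported here. The members and lists were chosen with earlier results of these data known. Alternatives were no range term, the block, each range alone, DESeq2 1.42.0 (size factors and Wald test), limma-voom 3.58.1, mitochondrially encoded genes left out, other filters and leaving out each library. Promoters come from the RefSeq table on GRCm38.p6.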

Additional observations from a re-analysis of the deposited data

Results flagged for a closer look

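A library was flagged when it lay far from the other 5 of its culture. For 6 values of 1 normal population the rule flags about 1 group in 20 by chance. Each group here mixes both number ranges, so that share is no yardstick. Of 344 groups of 6 libraries, 14 held a flagged library (4.07%). In cells alone these were library 1 for Tgtp2 (2.995 CPM, nearest other 2.06), library 2 for Nqo1 (2.49) and Cd44 (883), library 4 for Nrcam (7.84), library 5 for Ifit3 (1.45), and library 3 for Col1a1 (30.2), Slc2a1 (106), Cdx2 (1.17) and Ftl1 (697), all in CPM. With SIS ECM they were library 1 for Irf9 (25.3 CPM) and Lama2 (20.4 CPM), library 3 for Slc7a5 (67.6 CPM), and library 5 for Itgb8 (1.55 CPM) and Casp4 (6.19 CPM).

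The SIS ECM effect of 10 named genes differed between the number ranges at an adjusted p below 0.05 in the test of the difference. The difference of log2 fold changes (libraries 4 to 6 minus 1 to 3) was −0.84 for Eno2, −0.61 for Ndrg1, −1.02 for Hmox1, −1.39 for Cd68, −0.57 for Vegfa and −0.46 for Hexa, all of which rose over all libraries. For genes that fell it was 0.55 for St3gal6, 0.56 for Ankrd1, 0.57 for Dkc1 and 0.49 for Elovl6. All 10 effects were thus nearer to 0 in libraries 4 to 6, and the count of genes called in this test ran from 0 to 3167 when 1 library was left out.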

How the results depend on the processing

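Main counts were 3547 genes changed, 1857 higher and 1690 lower, with 222 and 18 at least 2-fold, and 0 of the genes called under any alternative had the opposite sign to the main fit where both called them. Without a range term 1125 genes were called (746 higher, 379 lower), with the replicate block 2278 (970 lower), in libraries 1 to 3 alone 2231 (1203 higher, 1028 lower, 30 at least 2-fold lower) and in libraries 4 to 6 alone 1022 lower. With no filter on low counts 425 were at least 2-fold higher and 58 lower, and with a CPM filter 156 were at least 2-fold higher and 10 lower. The test of the difference between ranges called 44 genes, 696 with no filter, 331 with DESeq2, and 0 to 3167 when 1 library was left out. Leaving out 1 library gave 2832 to 4107 changed genes. Higher calls were 52.4% of all calls, and 66.3% without a range term. They were 49.3% with DESeq2 size factors in edgeR, 48.5% with the DESeq2 Wald test and 48.4% with the CPM filter. Fits without 1 library gave 45.3% (without SIS ECM 4) to 55.5% (without SIS ECM 1). Which direction held more calls thus depended on the processing and on single libraries. Of 172 genes given with values, 131 kept their call without a range term, 165 with the replicate block, 148 in libraries 1 to 3 alone, 156 in libraries 4 to 6 alone, and all 172 with DESeq2 size factors in edgeR; 4 changed call when some library was left out. The block changed no other call of these genes than those of Cd44, Timp3, Pdgfrb, Cdx2, Insig1, Lgals4 and Slfn9, and it also ended the call of Birc2. Causes were not tested. Depth limits genes near 1 CPM, such as Mmp3 and Mmp10, most.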
